A study of Mus musculus with 9 samples.

Results

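The cytosolic ribosomal proteins were followed in 2 mouse prostate epithelial cell lines, 1 wild-type (wtPrE) and 1 lacking both copies of the retinoblastoma gene Rb1 (Rb-/-PrE). Both lines grew in RPMI-1640 medium, either with 5% fetal bovine serum or after 48 hours without it. The 9 arrays fell into 4 groups: 3 of the wild-type line in serum, 2 of it without serum, 2 of the Rb-null line in serum and 2 of it without serum. The genes were chosen by symbol, as those beginning with Rpl or Rps and a digit together with Rpsa, Rplp0, Rplp1 and Rplp2, and without the ribosomal protein S6 kinases and pseudogenes. This gave 49 of the 12422 probe sets (the groups of probes that measure 1 transcript), 22 for the large and 27 for the small ribosomal subunit, from 35 gene symbols (17 large and 18 small subunit) of the 8251 that had a probe set of their own. Another 39 probe sets listed a ribosomal protein symbol beside other symbols. They were left out of the 49 and are described only together, and genes found only there carry no value here.

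The cytosolic ribosome joins a small subunit, which reads the messenger RNA, to a large subunit, which forms the peptide bonds. Its proteins are made in matched amounts from genes that are expressed strongly in dividing cells, and many of their messenger RNAs begin with a terminal oligopyrimidine (TOP) stretch, through which growth factors and mTOR control their translation more than their amount. The retinoblastoma protein is best known for restraining E2F target genes, and it also restrains transcription by RNA polymerases I and III, which make ribosomal RNA and transfer RNA. Ribosomal protein genes have many processed pseudogenes and close relatives, so that probes can hybridise to several transcripts.

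The stretches around the annotated starts of genes whose probe sets changed are shown first. Each run holds 50 bases before and 25 bases from the RefSeq start (GRCm38.p6), 5′ to 3′ on the gene's strand. The letters TTTCC, a short pyrimidine run common near these starts, are in capitals. The capitals do not mark a TOP sequence, which would begin at the start. In the downstream Rpl22 start, in Rps7 and at the first place in Rps27 they lie before the annotated start. Rpl22, which rose without serum, has 2 annotated starts, at chr4:152325676-152325750 (plus strand, downstream start) and chr4:152324386-152324460 (plus strand, upstream start). Rpl13a at chr7:45128721-45128795 (minus strand) was lower in the Rb-null line. Rps7 at chr12:28635929-28636003, Rps10 at chr17:27635220-27635294, Rps27 at chr3:90213624-90213698 and Rps18 at chr17:33955641-33955715 (all minus strand) are small subunit genes that were lower in that line, as was Rps13 at chr7:116334166-116334240 (minus strand).
Rpl22, downstream start: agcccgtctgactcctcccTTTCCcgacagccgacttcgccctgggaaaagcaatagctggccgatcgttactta
Rpl22, upstream start: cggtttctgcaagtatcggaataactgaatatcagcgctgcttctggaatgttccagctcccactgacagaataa
Rpl13a: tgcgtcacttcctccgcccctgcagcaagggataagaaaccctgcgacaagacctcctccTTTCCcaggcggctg
Rps7: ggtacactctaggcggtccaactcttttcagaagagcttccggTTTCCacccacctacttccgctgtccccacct
Rps10: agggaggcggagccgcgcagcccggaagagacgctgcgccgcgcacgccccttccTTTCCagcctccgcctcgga
Rps27: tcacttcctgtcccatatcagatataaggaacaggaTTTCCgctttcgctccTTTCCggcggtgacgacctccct
Rps13: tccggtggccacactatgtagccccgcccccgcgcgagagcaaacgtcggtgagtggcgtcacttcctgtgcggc
Rps18: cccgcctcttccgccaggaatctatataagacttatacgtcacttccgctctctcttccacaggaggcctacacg
The letters TTTCC occur in 5 of these 8 starts, not in the upstream Rpl22 start, Rps13 or Rps18, and in Rps27 they occur at 2 places. The runs shown hold them more often than the rest: of the 16 annotated starts of the 12 genes with a called probe set and a RefSeq entry, 6 hold them in the same stretch.

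Of the 35 gene symbols, 28 matched the RefSeq promoter table. On the gene's strand and within 50 bases before or after an annotated start, TTTCC lay in 17 of the 28 (60.7%). It lay in 4474 of the 27025 genes of the table (16.6%). By subunit, TTTCC lay in 8 of 14 large subunit genes and 9 of 14 small subunit genes. The letters CCGGAAG, an ETS-type motif, lay on either strand from 250 bases before to 50 after the start in 12 of the 28 genes (42.9%), against 9.93% of all genes. The E2F-type letters TTTCCCGC, TTTGGCGC or TTTCGCGC, the first of which contains TTTCC, lay on either strand of the same window in 2 of the 28 (7.14%), against 2.12% of all genes. These are matches of letters, not measured binding.

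Ribosomal proteins gave some of the brightest signals on the arrays. Of 121 tested probe sets with a mean deposited intensity of 7000 or more, 20 were ribosomal protein probe sets and 24 more were of the shared kind. The highest was Rpl41, whose product is the smallest protein of the large subunit, at 23212 to 26293 over the 9 arrays. Rplp0, which anchors the stalk of the large subunit, followed at 16883 to 19288, and the brightest small subunit probe set was one of 3 for Rps28, at 14036 to 16531. Intensities of different probe sets depend on their probes and are not amounts of RNA. At the other end, 6 of the 49 lay under the floor of 197 on every array and were not tested: both probe sets for Rpl38, those for Rpl39 and Rps15, 1 of the pair for Rpl7 and 1 of the pair for Rps4l. The 43 tested probe sets covered 32 genes, 18 probe sets for the large and 25 for the small subunit.

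**Figure D1:**
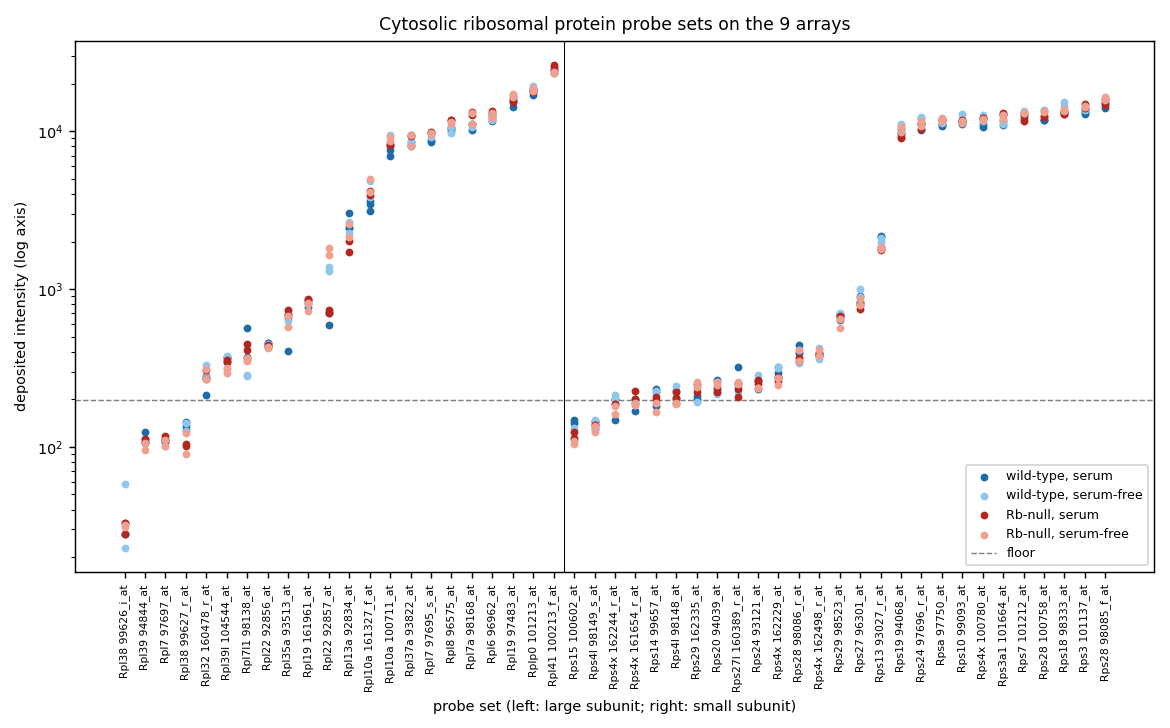
Deposited intensity (log axis) of all 49 ribosomal protein probe sets on the 9 arrays, ordered by mean within each subunit, with colours for the 4 groups and a dashed line at the floor of 197. Points of different groups lie close together for most probe sets; the Rpl22 probe set 92857_at is spread from 592 to 1816, and 6 probe sets lie wholly under the floor.

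Probe sets of 1 gene could differ widely in level. The 5 for Rps4x, the X-linked S4 protein of the small subunit, had means from 187 to 11762. For Rps24, a small subunit protein mutated in some Diamond-Blackfan anaemia, the pair had means of 254 and 11184, and the brighter of these carries the accession of a sequence from which an Rpl7 probe set was also made. Its gene is therefore uncertain, and it was not called in any comparison.

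Some facts of the whole series bear on every value. The Rb1 probe set 97948_at had deposited intensities of 713, 406 and 369 in the wild-type line in serum and 383 and 361 without serum, against 113 and 112, and 166 and 160, in the Rb-null line, so the labels of genotype matched. Epithelial markers were present, with 11 of 12 above the floor on every array and Krt15 below it on all; their summed level ran from 33346 to 39516. Ptprc and Lyz2 of the 8 leukocyte markers, Vim, Acta2, Myh11 and Pdgfrb of the 10 mesenchymal markers, and Tek and Tie1 of the 6 endothelial markers were under the floor on every array. Above the floor on every array were 5 of the 8 leukocyte, 6 of the 10 mesenchymal and 3 of the 6 endothelial markers. The summed leukocyte markers were 2791 to 3441 in the wild-type line and 2860 to 2957 in the Rb-null line. The mesenchymal markers summed to 3960 to 5119 and 4087 to 4287, and the endothelial markers to 1882 to 2191 and 1674 to 1793. The part of these in the genotype results was not tested. The first wild-type array in serum stood apart, with rank correlations of 0.974 and 0.969 to the other arrays of its group, against 0.995 between those. The upper quartile of the deposited values was 991 to 1088 in the wild-type line and 1119 to 1153 in the Rb-null line, which matters for the scaling of these bright probe sets. There is 1 line per genotype, and nothing in the labels tells separate cultures from repeat arrays, so p-values measure the spread between these arrays and a genotype difference is one between these 2 lines. With bulk RNA, fewer cells of a type and less RNA per cell cannot be told apart.

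On withdrawal of serum the share of ribosomal protein probe sets called on the quantile normalised values was near that of all tested probe sets. The one large difference was that of an Rpl22 probe set. On the normalised values all calls were rises, a larger share than the rises among all tested probe sets in each line. No test compared these shares, and the counts depended on the scaling and on single arrays. Values were quantile normalised, and differences are on the log2 scale with standard errors (SE) and adjusted p-values from limma (Benjamini-Hochberg over 9686 probe sets), called where the adjusted p is under 0.05. In the wild-type line 6 of the 43 rose, against 6.61% of all tested probe sets, and 0 fell, against 9.25%. In the Rb-null line 5 rose, against 7.50% of all, and 0 fell, against 6.42%. The median difference of the 43 was 0.08 in the wild-type line (all tested, 0.05) and 0.05 in the Rb-null line (all tested, 0.00). At an unadjusted p under 0.05 there were 11 of the 43 in the wild-type line, against 27.9% of all tested, and 7 in the Rb-null line, against 24.2%. On the deposited values 3 rose, against 3.64% of all, and 1, Rpl7l1, fell, against 10.5%, in the wild-type line. In the Rb-null line 1 rose, against 5.88%, and 1, Rpl41, fell, against 7.37%, on these values, and the median was 0.00. With cyclic loess 12 of the 43 rose in the wild-type line, against 4.86% of all tested. With single arrays left out, the wild-type count of rises was 2 without the second and 3 without the first wild-type serum-free array. The Rb-null count was 2 without either Rb-null array in serum, 3 without either Rb-null serum-free array and 8 without the first wild-type array in serum. The 2 withdrawal comparisons share no arrays, but each shares arrays with the genotype comparisons. On the normalised values the media did not overlap for 20 of the 43 in the wild-type line, against 44.2% of all tested probe sets. In the Rb-null line they did not overlap for 27 of the 43, against 56% of all.

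Rpl22 encodes an RNA-binding protein of the large subunit that many cells can do without, because a paralogue replaces it. Its probe set 92857_at had deposited intensities of 592, 718 and 710 in the wild-type line in serum and 1300 and 1387 without serum. In the Rb-null line it had 701 and 733 in serum and 1647 and 1816 without serum. Every serum-free array lay above every array in serum. The rise was 1.13 (SE 0.11, 2.18-fold, adjusted p = 0.000174) in the wild-type line and 1.25 (SE 0.12, 2.38-fold, adjusted p = 0.000208) in the Rb-null line, and both calls held under all 18 alternatives. The difference between the rises was 0.13 (SE 0.17, adjusted p = 0.780). The other Rpl22 probe set, 92856_at, lay between 423 and 457 on all 9 arrays, and its groups overlapped. It differed by 0.04 (adjusted p = 0.769) and 0.01 (adjusted p = 0.986) on withdrawal. Thus the rise rests on 1 of 2 probe sets for this gene, and these were made from different sequence entries.

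Rps19, a small subunit protein whose loss of 1 copy causes Diamond-Blackfan anaemia, rose in both lines. Its deposited intensities in the wild-type line were 9569, 10316 and 9763 in serum and 11035 and 10842 without it. For the Rb-null line the values were 9137 and 9061 in serum and 10610 and 9937 without it. The serum-free arrays were the higher ones in each line. The rise was 0.22 (SE 0.04, adjusted p = 0.0109) in the wild-type line, and it lost its call on the deposited values (0.15, adjusted p = 0.1004) and without either wild-type serum-free array (0.19 and 0.23, adjusted p = 0.0993 and 0.0530). In the Rb-null line it was 0.33 (SE 0.05, adjusted p = 0.00227), lost only on the deposited values (0.17, adjusted p = 0.0822). Apart from leaving out single arrays, the wild-type call held under 7 of 9 refits.

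Rpl10a, a large subunit protein near the L1 stalk, rose by both of its probe sets in the wild-type line. For 100711_at the deposited intensities were 7636, 8025 and 7007 in serum and 8350 and 9457 without serum, and for 161327_f_at they were 3437, 3621 and 3108 in serum and 3804 and 4814 without serum. The serum-free arrays were the highest for both. The rises were 0.29 (SE 0.06, adjusted p = 0.00819) and 0.42 (SE 0.11, adjusted p = 0.0297), and both lost their call on the deposited values (0.24, adjusted p = 0.0670, and 0.34, adjusted p = 0.101) and without the second serum-free array (0.23, adjusted p = 0.109, and 0.28, adjusted p = 0.264). The second probe set also lost it without the third wild-type array in serum (0.39, adjusted p = 0.0634) and without either Rb-null array in serum (adjusted p = 0.0562 and 0.0544). In the Rb-null line 100711_at went from 8125 and 8313 to 8686 and 9223, a rise of 0.27 (SE 0.06, adjusted p = 0.0211) that fell under the threshold on the deposited values (0.12, adjusted p = 0.429) and without each Rb-null array in turn. Of the 9 refits other than leaving out single arrays, this call held under 4. In the wild-type line the calls of 100711_at and 161327_f_at held under 7 and 4 of these.

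The remaining rises were small, and not every loss of a call is named below. Apart from leaving out single arrays there were 9 refits. In the wild-type line the Rps28 call held under 7 of them and the Rps10 call under 4. In the Rb-null line the Rps28 call held under 2 and the Rps7 call under 6. Rps28, a small subunit protein, rose by 1 of its 3 probe sets, 100758_at, from 11693, 11775 and 11811 to 13559 and 13669 in the wild-type line, and from 12296 and 12524 to 13465 and 13234 in the Rb-null line. The groups did not overlap in either line, and the rises were 0.20 (SE 0.04, adjusted p = 0.00812) and 0.15 (SE 0.04, adjusted p = 0.0469). The first lost its call without the first wild-type serum-free array (0.18, adjusted p = 0.0699) and the second on the deposited values (0.11, adjusted p = 0.168) and without most single arrays. Rps10, which contacts the messenger RNA entry side of the small subunit, rose by 0.18 (SE 0.04, adjusted p = 0.0166) in the wild-type line. Its call was lost on the deposited values (0.14, adjusted p = 0.111) and without either wild-type serum-free array (0.19 and 0.15, adjusted p = 0.0652 and 0.138). Rps7, which can bind the p53 regulator MDM2, rose by 0.19 (SE 0.04, adjusted p = 0.0106) in the Rb-null line, from 11539 and 11897 to 12947 and 12995. It lost its call on the deposited values (0.15, adjusted p = 0.0653), without either Rb-null array in serum (0.17 and 0.20, adjusted p = 0.0955 and 0.0625) and without the first Rb-null array without serum (0.17, adjusted p = 0.0581).

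**Figure D2:**
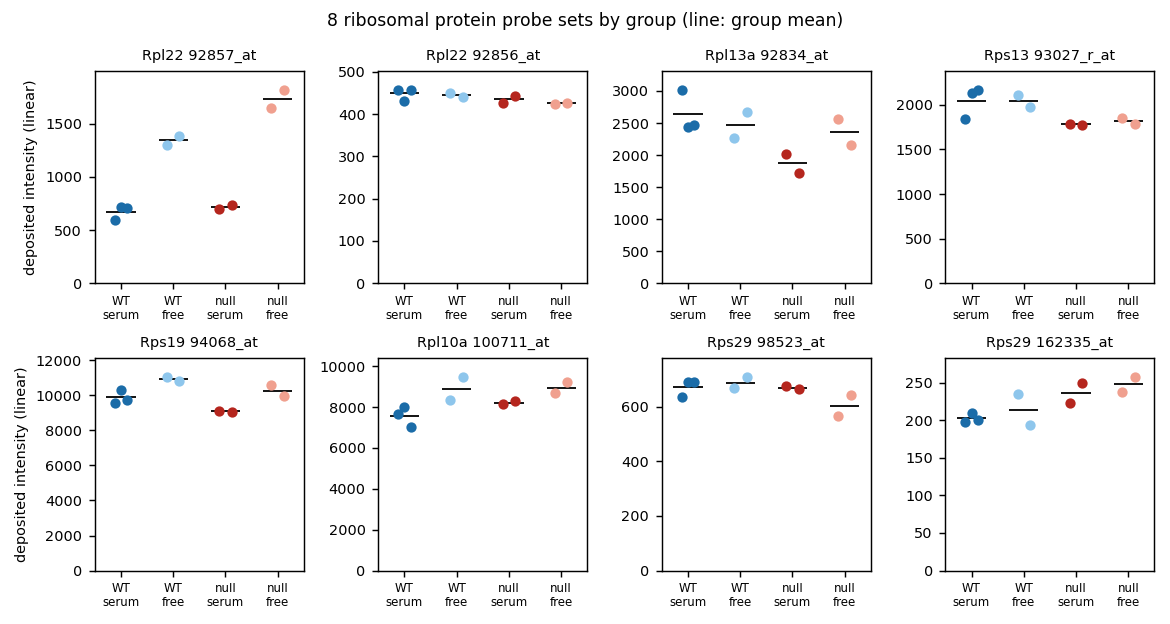
Deposited intensity (linear axis from 0) of 8 probe sets by group; points are arrays and lines are group means (n = 3 for the wild-type line in serum, otherwise 2). Rpl22 92857_at rises without serum in both lines while 92856_at stays between 423 and 457, and Rpl13a and Rps13 are lower in the Rb-null line in serum.

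Among the 77 other tested probe sets with a mean of 7000 or more, 7 rose and 20 fell in the wild-type line and 8 rose and 20 fell in the Rb-null line. Of the 36 tested shared probe sets, 5 and 8 rose and 0 fell. As a share of all deposited intensity, the 49 probe sets held 2.25%, 2.44% and 2.42% in the wild-type line in serum and 2.59% and 2.70% without it. The shares in the Rb-null line were 2.26% and 2.32% in serum and 2.36% and 2.44% without it. The serum-free arrays had the larger share in each line, although the sums are led by a few bright probe sets. The total of all deposited intensities was lower without serum in both lines. In the Rb-null line the sums of the 49 overlapped, at 275268 and 277347 in serum and 275572 and 283089 without it. In the wild-type line they were 256758, 270883 and 262666 in serum and 273627 and 285723 without it.

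Between the lines, the ribosomal protein signals differed little. On the normalised values most probe sets called lower in the Rb-null line were of the small subunit. Averaged over both media, 3 of the 43 were higher, against 21.8% of all tested probe sets, and 10 were lower, against 23.4%. In serum 1 was higher, against 13.2% of all, and 5 were lower, against 10.4%. Without serum 1 was higher, against 16.8%, and 5 were lower, against 13.9%. The median differences of the 43 were -0.03, -0.01 and -0.05, and those of all tested probe sets were -0.05, -0.03 and -0.07. On the normalised values the lines did not overlap for 14 of the 43 in serum, against 49.5% of all. Without serum this held for 27, against 74.3%, and over both media for 3, against 23.1%. The split of the averaged calls depended on the scaling, as did the shares of all tested probe sets. On the deposited values 4 were higher and 3 lower, against 28.1% and 12.5% of all. The 3 lower were Rpl13a, Rps13 and Rps4x 162229_at. After median scaling of the arrays 3 were higher and 7 lower, against 25.9% and 16.8%. With cyclic loess 1 was higher and 13 lower, against 24.3% and 15.8%. The number of lower calls also moved with single arrays. It was 12 without the first wild-type array in serum, against 35.9% of all, and smaller without some others.

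Rpl13a, a large subunit protein that can leave the ribosome to silence translation in interferon-treated myeloid cells, had the largest difference. Its deposited intensities were 3016, 2438 and 2468 in the wild-type line in serum and 2259 and 2670 without serum, against 2020 and 1720, and 2565 and 2150, in the Rb-null line. In serum every Rb-null array lay below every wild-type array, whereas without serum the lines overlapped in these values. The difference was -0.65 (SE 0.10, adjusted p = 0.00235) in serum and -0.47 (SE 0.08, adjusted p = 0.00129) averaged over media, and both calls held under all 18 alternatives. On the deposited values these were -0.50 (adjusted p = 0.0220) and -0.28 (adjusted p = 0.0438). Without serum it was -0.30 (adjusted p = 0.0782), and -0.06 (adjusted p = 0.763) on the deposited values. The change of the difference with serum was 0.35 (SE 0.16, adjusted p = 0.455).

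Rps13, a small subunit protein, had deposited intensities of 1840, 2135 and 2166 in the wild-type line in serum and 2110 and 1975 without it, against 1781 and 1778, and 1854 and 1781, in the Rb-null line. The Rb-null arrays lay below the wild-type arrays within each medium, although lines without overlap were common among all tested probe sets. Its averaged difference was -0.38 (SE 0.08, adjusted p = 0.00424), called under all 18 alternatives, and its size depended on the scaling: it was -0.18 (adjusted p = 0.0482) on the deposited values. By medium it was -0.34 (adjusted p = 0.0441) in serum and -0.41 (adjusted p = 0.0257) without serum. Neither was called on the deposited values (-0.20, adjusted p = 0.141, and -0.17, adjusted p = 0.218) or after median scaling (-0.22, adjusted p = 0.0917, and -0.20, adjusted p = 0.124). Apart from leaving out single arrays, the calls held under 4 and 6 of 9 refits. With single arrays left out, the call in serum held in 1 of 9 cases, that without the first wild-type array in serum, and the call without serum in 5 of 9.

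Rps7, Rps19 and Rps18, the last a protein of the head of the small subunit, were lower by small amounts that depended on the scaling. In serum Rps7 had 12681, 12798 and 12399 in the wild-type line and 11539 and 11897 in the Rb-null line, without overlap. Without serum it had 13202 and 13513 against 12947 and 12995. The averaged differences were -0.14 for Rps7 (adjusted p = 0.00227), -0.16 for Rps19 (adjusted p = 0.00428) and -0.11 for Rps18 (adjusted p = 0.0112). On the deposited values they were -0.07 (adjusted p = 0.0780), -0.10 (adjusted p = 0.0546) and -0.07 (adjusted p = 0.0937), and none passed the threshold. In serum the same 3 were lower, with differences of -0.20 (adjusted p = 0.00323), -0.22 (adjusted p = 0.00759) and -0.13 (adjusted p = 0.0368), and on the deposited values none of the 3 was called in serum (adjusted p = 0.0906, 0.138 and 0.637).

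Rps27, a zinc-finger protein of the small subunit, had an averaged difference of -0.29 (SE 0.07, adjusted p = 0.0124). Its call was lost on the deposited values (-0.17, adjusted p = 0.0835), after median scaling (-0.20, adjusted p = 0.0516), without the second wild-type serum-free array (-0.24, adjusted p = 0.0552) and without the second Rb-null array in serum (-0.27, adjusted p = 0.0527). Rps10 had an averaged difference of -0.09 (adjusted p = 0.0367) and Rps14, another small subunit protein, one of -0.14 (adjusted p = 0.0494), near the threshold, with Rps14 above the floor on 6 of 9 arrays. Of the 5 Rps4x probe sets, 162229_at had a difference of -0.20 (adjusted p = 0.0203), while the brightest, 100780_at, was not called. Without serum the lower calls were Rps13, Rps10, Rps4x 162229_at, Rps27 and Rps29 98523_at, at adjusted p of 0.0257 to 0.0495. All 5 were lost without several arrays in turn, and all but Rps13 without most of them. On the deposited values only Rps4x 162229_at was called lower (-0.30, adjusted p = 0.0370), and with no filter 0 were. Apart from leaving out single arrays, the calls of Rps13, Rps10, Rps27 and Rps29 98523_at held under 6, 3, 4 and 2 of 9 refits. That of Rps4x 162229_at held under 5 of 8.

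Rps29, a small zinc-binding protein of the small subunit, had probe sets called in opposite directions. The dim one, 162335_at, had 197, 210 and 200 in the wild-type line in serum and 235 and 193 without it, against 223 and 249, and 238 and 257, in the Rb-null line, near the floor of 197. The other, 98523_at, had 634, 688 and 690, and 667 and 707, against 676 and 663, and 565 and 642. The averaged differences were 0.24 (SE 0.06, adjusted p = 0.00846) and -0.20 (SE 0.07, adjusted p = 0.0435), so no direction can be given for this gene.

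The higher probe sets included 2 of the large subunit. Rpl8, a protein near the peptidyl transferase centre, had 10089, 10458 and 10472, and 9674 and 10563, in the wild-type line against 11782 and 11785, and 11154 and 11444, in the Rb-null line. No wild-type array reached any Rb-null array. The averaged difference was 0.14 (SE 0.03, adjusted p = 0.00995), but 0.03 with cyclic loess (adjusted p = 0.559), and it missed the threshold without the first Rb-null array in serum (0.12, adjusted p = 0.0508). Rpl7a, also of the large subunit, was higher by 0.15 (SE 0.05, adjusted p = 0.0275). It lost its call with cyclic loess (0.06, adjusted p = 0.360), no filter (adjusted p = 0.0934) and no intensity trend (adjusted p = 0.0645). The call was also lost without 6 of the 9 arrays in turn.

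By subunit, the averaged genotype comparison called 2 higher and 1 lower of 18 large subunit probe sets, and 1 higher and 9 lower of 25 small subunit probe sets. The medians were 0.01 and -0.06, a gap of 0.07. The large minus small median of single arrays had an SD of 0.02 within groups, which is not the error of this gap. In serum the gap was 0.04, but -0.00267 without the first wild-type array in serum, 0.0072 with no filter and 0.12 on the deposited values. Without serum it was 0.04. The averaged gap was between 0.03 and 0.12 when single arrays were left out, and 0.14 on the deposited values. On withdrawal 3 of 18 large and 3 of 25 small subunit probe sets rose in the wild-type line, and 2 of 18 and 3 of 25 in the Rb-null line. The gaps were -0.02 and -0.06. In the wild-type line the gap changed sign with cyclic loess (0.004) and without the first serum-free array (0.04). Among the shared probe sets, 4 higher and 2 lower of 26 for the large subunit and 2 higher and 0 lower of 10 for the small subunit were called in the averaged comparison. No test compared the subunits.

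**Figure D3:**
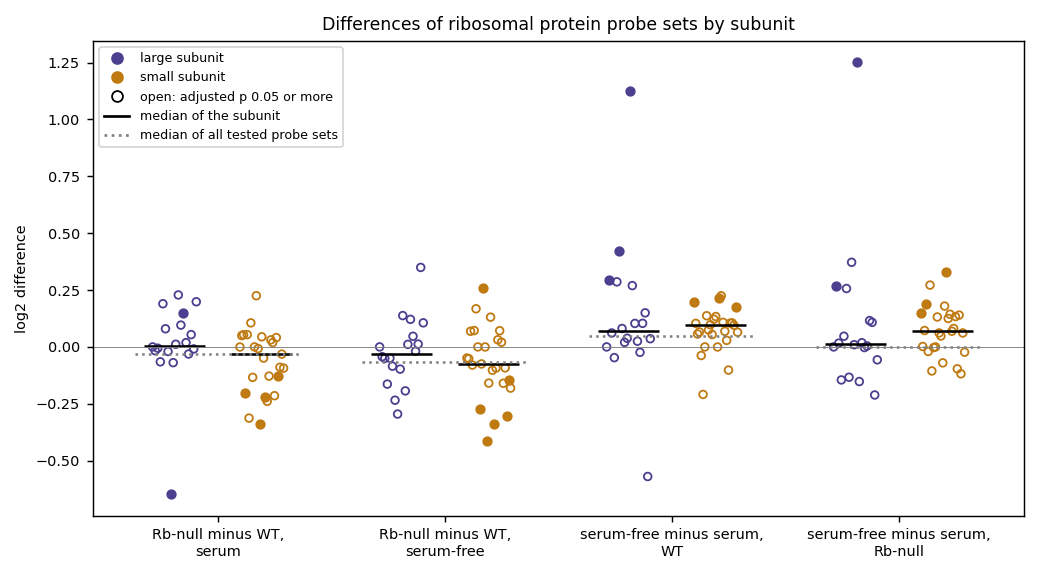
Log2 differences of the 43 tested ribosomal protein probe sets in 4 comparisons, by subunit; filled points have adjusted p under 0.05, black lines are subunit medians and dotted lines the medians of all tested probe sets. Most points lie within 0.3 of zero, and Rpl22 92857_at stands above 1 in both withdrawal comparisons.

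**Figure D4:**
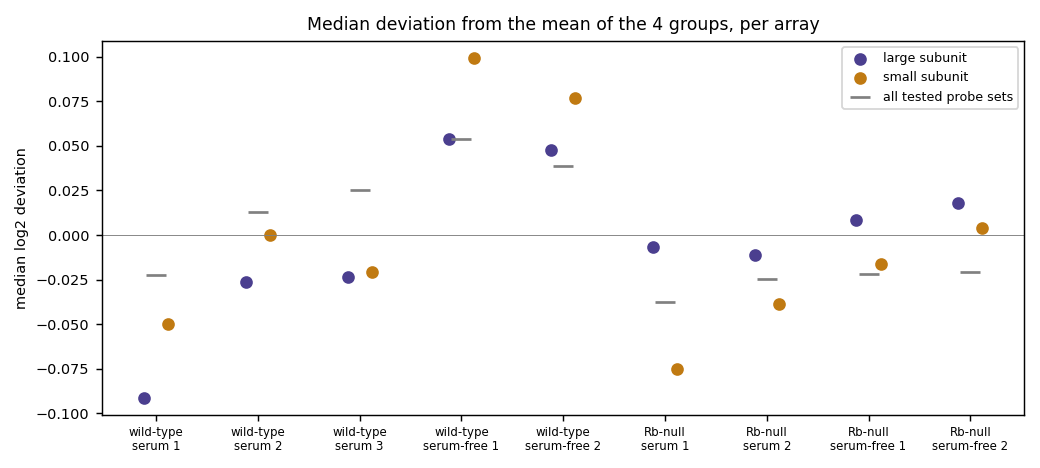
Median log2 deviation of the large and small subunit probe sets and of all tested probe sets on each array, from the mean of the 4 groups. Both subunits are highest on the 2 arrays of the wild-type line without serum, as are all tested probe sets. The large subunit is lowest on the first wild-type array in serum and the small subunit on the first Rb-null array in serum.

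Rpl41 had a difference of 0.00 in every comparison because it was the brightest probe set on each array and quantile normalisation gives such a probe set 1 value. On the deposited scale its intensities were 23212, 24449 and 24264, and 23324 and 23859, in the wild-type line, and 26293 and 25632, and 23370 and 23626, in the Rb-null line. The Rb-null arrays in serum were the highest.

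The response to serum was not found to differ between the lines for any ribosomal protein probe set. In the interaction 0 of 43 were called higher, against 0.454% of all tested probe sets, and 0 lower, against 0.475%, by limma. At an unadjusted p under 0.05 there were 3 of 43, against 10.9% of all. The largest was Rps27l, a paralogue of Rps27 known as a p53 target, at 0.48 (SE 0.18, adjusted p = 0.362). Its deposited intensities were 321, 254 and 252, and 245 and 222, in the wild-type line and 233 and 206, and 258 and 251, in the Rb-null line.

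Several proteins with central roles or roles outside the ribosome were not called in any comparison. They include Rpsa, the laminin receptor precursor, with 10710 to 12177 over the 9 arrays, Rplp0, and Rps3, which also acts in DNA repair, with 12893 to 14848. Their averaged genotype differences were 0.03, -0.03 and 0.06 (SE 0.03 each). Among the paralogues, Rpl7l1 had 568, 371 and 363 in the wild-type line in serum and 280 and 285 without it, a difference of -0.57 (SE 0.18, adjusted p = 0.0600). The first array in serum was far above the others, but 371 and 363 also lay above 280 and 285. On the deposited values this fall was called (-0.59, adjusted p = 0.0495). Rpl39l ranged from 292 to 376, and the tested Rps4l probe set from 188 to 244, near the floor. Fau, which encodes a small subunit protein fused to a ubiquitin-like protein, was the only such gene outside the symbol rule with a probe set of its own, and it was not called.

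Many genes for building ribosomes fell on withdrawal and were higher in the Rb-null line. Of 46 tested genes for ribosome assembly and RNA polymerase I, 21 fell and 0 rose on withdrawal in the wild-type line (median -0.34). Among all tested probe sets, 9.25% fell and 6.61% rose there. In the Rb-null line 12 fell and 1 rose (median -0.26), against 6.42% and 7.50% of all. Nolc1, a nucleolar chaperone, fell by 0.83 and 0.74 (adjusted p = 0.000224 and 0.000986). Rrs1, needed for the large subunit, fell by 0.81 in the wild-type line (adjusted p = 0.000599), as did Gnl3, nucleostemin, by 0.80 (adjusted p = 0.000205). In the Rb-null line Nop56, a box C/D snoRNP protein, fell by 0.71 (adjusted p = 0.000675) and Noc4l by 0.70 (adjusted p = 0.000629). Between the lines 27 were higher and 2 lower in the Rb-null line averaged over media, with a median of 0.24. The shares of all tested probe sets were 21.8% and 23.4%. Tsr1, a maturation factor of the small subunit, was higher by 0.85 (adjusted p = 0.000198), Pes1, a maturation factor of the large subunit, by 0.68 (adjusted p = 0.000161) and Nhp2, of the box H/ACA complex, by 0.61 (adjusted p = 2.74e-05). Without the first wild-type array in serum the withdrawal counts were 25 lower in the wild-type line and 25 lower in the Rb-null line, and without a single Rb-null array the latter was 5 or 6. The wild-type count was 12 without the first and 14 without the second wild-type serum-free array. With only the groups compared in the fit, it was 11, and the Rb-null count was 18.

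Of 61 mitochondrial ribosomal protein genes, 31 were higher and 4 lower in the Rb-null line (median 0.21), against 21.8% and 23.4% of all tested. The higher genes were led by Mrpl20 at 1.15 (adjusted p = 7.45e-06) and Mrpl33 at 1.14 (adjusted p = 6.88e-05). On withdrawal 2 rose and 9 fell in the wild-type line (median -0.10), against 6.61% and 9.25% of all tested. In the Rb-null line 3 rose and 3 fell (median -0.02), against 7.50% and 6.42%. The counts of falls rested on few arrays. In the wild-type line the count was 1 without the first and 2 without the second serum-free array, 5 with no filter on low values, and 1 when only the groups compared entered the fit. In the Rb-null line it was 7 without the first wild-type array in serum, 1 without either wild-type serum-free array, and 0 or 1 without any single Rb-null array. Mrpl24 rose in both lines, by 0.59 (adjusted p = 0.00160) and 1.04 (adjusted p = 0.000123), whereas Mrpl18 fell by 0.81 (adjusted p = 0.000919) and 0.45 (adjusted p = 0.0312).

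Of 15 translation factors and other TOP genes, 3 rose and 2 fell on withdrawal in the wild-type line, against 6.61% and 9.25% of all. In the Rb-null line 4 rose and 0 fell, against 7.50% and 6.42%. Eef2, the elongation factor that moves the ribosome along, rose by 0.39 (adjusted p = 0.00269) and 0.55 (adjusted p = 0.000819), and its averaged genotype difference was -0.28 (adjusted p = 0.00115). Eif4b, a helper of the initiation helicase, rose by 0.21 (adjusted p = 0.0263) and 0.56 (adjusted p = 0.000322). Of 14 regulators of growth signalling, 6 were higher and 4 lower in the Rb-null line, against 21.8% and 23.4% of all tested. Myc, which drives transcription of ribosome assembly genes, was higher by 1.12 (adjusted p = 0.000328). On withdrawal it fell by 0.78 in the wild-type line (adjusted p = 0.0248), with a difference of 0.08 (adjusted p = 0.918) in the Rb-null line. In the interaction 0 of the 14 regulators were called, so the response of Myc was not found to differ between the lines. Maf1, a repressor of RNA polymerase III, rose by 0.49 (adjusted p = 0.00236) and 0.47 (adjusted p = 0.00522), and Eif4ebp1, which blocks cap-dependent initiation, by 0.38 (adjusted p = 0.0250) and 0.52 (adjusted p = 0.0103).

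**Figure D5:**
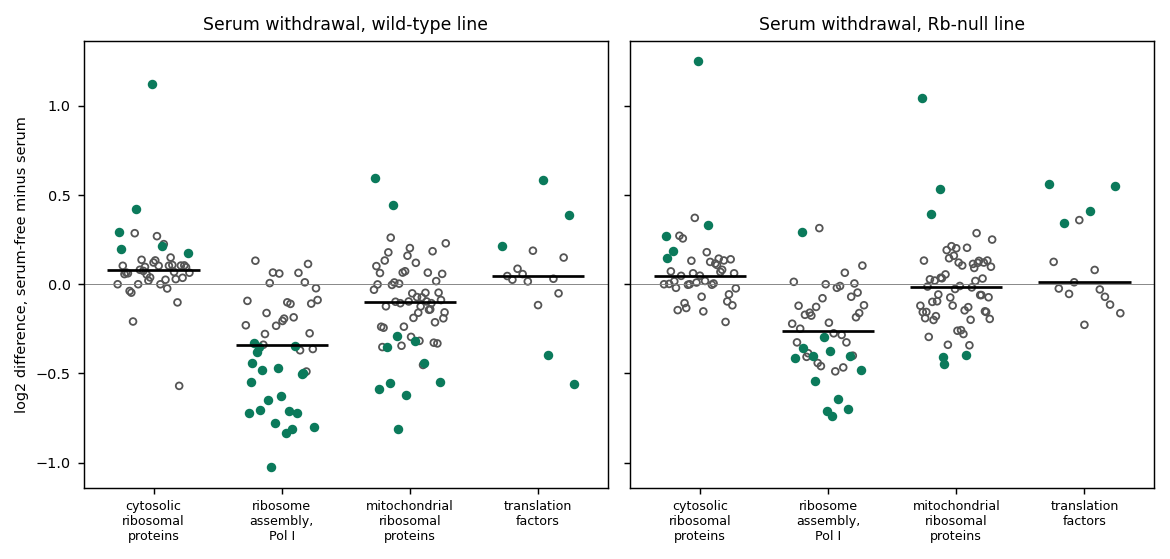
Log2 differences on serum withdrawal in each line for the 43 ribosomal protein probe sets and for genes of 3 lists (1 point per gene); filled points have adjusted p under 0.05 and black lines are medians. The ribosome assembly medians are -0.34 and -0.26, against 0.08 and 0.05 for the ribosomal proteins.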

How the data were processed

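Total RNA from 9 samples was read on single-channel arrays. The deposited table holds a linear intensity for each probe set on each array. The software and scaling behind it are not stated by the authors in any source used here. Symbols came from the platform annotation, which gave 10833 probe sets 1 symbol, 396 several and 1193 none. Values were quantile normalised, raised to a floor of 197 (percentile 25 of all values) and taken to log2. Probe sets above the floor on at least 2 of 9 arrays were tested, 9686 in all. One fit of 4 group means with limma 3.58.1 in R 4.3.3 used an intensity trend (5 residual degrees of freedom, 4.2 prior). Tests, all two-sided, had Benjamini-Hochberg adjustment over the 9686 and a threshold of 0.05. Genotype differences are Rb-null minus wild-type, averaged with equal weight over media or within one; withdrawal is serum-free minus serum. The script was tested on simulated data.

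Named ribosomal protein genes were up to 6 called per comparison and direction with the smallest adjusted p, a fixed set (Rpsa, Rplp0, Rps3, Rps14, Rps19, Rpl22, Rpl10a and the paralogues among it), genes with opposite calls, and the highest and lowest levels of each subunit; from each gene list, up to 3 per direction. Others named were chosen after their values were seen. The members and lists were chosen with earlier results of these data known. Alternatives were the deposited values, median scaling, cyclic loess, other floors, no filter, no trend, only the groups compared, the replicate number as a block, 1 probe set per gene, no suffixed probe sets and each array left out; adding the shared probe sets was chosen after seeing the data. The number of arrays limits the precision.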

Additional observations from a re-analysis of the deposited data

How the results depend on the processing

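Values are given in the order averaged genotype comparison, genotype in serum, genotype without serum, withdrawal in the wild-type line, withdrawal in the Rb-null line and interaction, naming those that moved; gap is the large minus the small subunit median, and the cause of each move was not tested. On the deposited values, calls were 3 higher and 1 lower for genotype in serum, 1 lower without serum, 3 higher and 1 lower for wild-type withdrawal, and 1 higher and 1 lower for Rb-null withdrawal; 3 were lower in the averaged comparison. Medians were 0.013 averaged, 0.036 in serum, 0.00 for Rb-null withdrawal and -0.078 for the interaction, and gaps 0.14 averaged, 0.12 in serum and -0.057 for wild-type withdrawal. With arrays scaled to a common median, 2 were lower in serum, 0 higher and 2 lower without serum, and 3 higher for Rb-null withdrawal. Medians were then 0.11 and 0.022 for the withdrawals and -0.092 for the interaction, and gaps 0.14 averaged, 0.10 in serum and -0.052 for wild-type withdrawal. With cyclic loess, 1 was higher averaged and 12 for wild-type withdrawal, medians were -0.060, -0.029 and -0.10 for genotype and -0.054 for the interaction, and gaps 0.071 in serum and 0.0040 for wild-type withdrawal. With the floor at percentile 40, 2 were higher in serum and 0 without serum, and gaps were 0.093 averaged and 0.060 in serum. At percentile 10, 0 were higher and 3 lower without serum, and gaps were 0.061 there, -0.056 for wild-type withdrawal and -0.014 for the interaction. With no filter, calls were 6 lower averaged, 0 higher and 3 lower in serum, 0 and 0 without serum, and 2 higher for Rb-null withdrawal. Medians were -0.0024 averaged, -0.019 without serum, 0.017 for Rb-null withdrawal and 0.00 for the interaction, and the gap 0.0072 in serum. With no intensity trend, 0 were higher in serum and without serum, 3 for wild-type and 2 for Rb-null withdrawal. With only the groups compared, 2 were higher in serum, 3 lower without serum and 2 higher for wild-type withdrawal. With 1 probe set per gene, gaps were 0.12, 0.10 and 0.092 for genotype. Without suffixed probe sets, the Rb-null withdrawal median was 0.017 and gaps 0.061 without serum, -0.054 for wild-type withdrawal and 0.020 for the interaction. With the shared probe sets added, chosen after seeing the data, 9, 3, 5, 11 and 13 were higher, medians were 0.00, 0.019 and -0.00018 for genotype and 0.072 for Rb-null withdrawal, and gaps 0.035 and 0.00470 for the withdrawals.

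With single arrays left out, higher calls ran from 1 to 4 averaged, 0 to 2 in serum, 0 to 2 without serum, 2 to 6 for wild-type and 2 to 8 for Rb-null withdrawal. Lower calls ran from 5 to 12 averaged, 2 to 8 in serum, 0 to 8 without serum and 0 to 1 for wild-type withdrawal. The median without serum ran from -0.070 to -0.024. Gaps ran from 0.028 to 0.12 averaged, -0.00267 to 0.076 in serum, 0.039 to 0.092 without serum, -0.029 to 0.042 and -0.085 to -0.030 for the withdrawals, and -0.056 to 0.0098 for the interaction. Where 1 array was left in a group, it was assumed to vary like the other groups. The highest counts mostly came without the first wild-type array in serum. The shares of all tested probe sets called moved with the settings too. In the averaged comparison 35.9% of all were lower without that array and 12.5% on the deposited values, against 23.4% in the main fit.

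Replicate numbers did not pair the arrays: deviations of same-numbered arrays correlated between -0.231 and 0.332 over 6 pairs of groups. With the replicate block, 0 were higher and 3 lower without serum, 1 was lower for wild-type withdrawal, and gaps were 0.069 in serum and -0.000756 for wild-type withdrawal. None of the called ribosomal protein probe sets changed sign under the 18 alternatives in which the arrays were refitted.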
